A study of Mus musculus with 6 samples.

Results

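The genes described are 9 interleukin receptor subunits (*Il10ra*, *Il10rb*, *Il13ra1*, *Il6ra*, *Il6st*, *Il17ra*, *Il21r*, *Il15ra* and *Il2rg*) and the cytokine gene *Il15*, 10 of the 22248 genes with an FPKM value (fragments per kilobase of transcript, scaled to library size). They were taken by gene name, and all 10 reached the level required for testing, an average FPKM of 1 across libraries. RNA came from resting bone-marrow-derived macrophages (BMDMs), cells grown from mouse bone marrow with macrophage colony-stimulating factor. The control group comprised 3 libraries from Lyz2cre mice, and the CITED2-deficient group comprised 3 libraries from Cited2 fl/fl:Lyz2cre mice. Both groups are C57BL/6, carry the Cre recombinase made from the myeloid *Lyz2* locus and are labelled as postnatal week 10, while the methods of the study give a younger age. The CITED2-deficient mice also carry floxed *Cited2* alleles, which Cre removes in cells that express *Lyz2*, so the deletion is limited to those cells and need not be complete. No stimulus is named for either group, and the labels do not say whether the 3 libraries of a group came from separate mice, so p-values measure the spread between these libraries.

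The depth recovered from the FPKM was 17289286 to 18952077 fragments in the control libraries and 22583995 to 26100410 in the CITED2-deficient libraries. *Cited2*, a transcriptional cofactor, measured 71.7, 79.3 and 75.5 FPKM in control replicates, in order, against 9.27, 7.22 and 7.53 with CITED2 deficiency, so it was lower in all 3. The 10 macrophage markers, among them *Adgre1*, *Csf1r* and *C1qa*, summed to 10410 to 10620 FPKM in control and 8881 to 8984 in CITED2-deficient libraries. Of these markers, 7 passed as lower and 1, *Fcgr1*, as higher (means of 172 and 482 FPKM). The lowest log2 fold changes were those of *Lyz2*, whose locus drives Cre in both groups, and *Itgam* (-1.59 and -0.81). *Lyz2* was at 31.3 and 9.75 FPKM and *Itgam* at 89.7 and 50.9 in the means. After median-ratio scaling, described below, *Cd68* and *Cd14* also passed as higher (adjusted p = 0.00283 and 0.00645 from limma). Over all tested genes 16.7% passed as higher and 34.6% as lower, which stands beside the counts that follow too. Fibroblast or stromal markers moved with the genotype. Of 10 listed, 7 were tested and passed as higher, but *Pdgfrb* and *Postn* reached the testing level only through the CITED2-deficient group. Of the 3 not tested, *Lum* and *Thy1* overlapped between the groups. The summed FPKM of the 10 was 43.0 to 51.5 in control and 173 to 548 in CITED2-deficient libraries, highest in replicate 1. Neutrophil and precursor markers summed to 727 to 795 and 658 to 777 FPKM, and 5 of 7 tested passed as lower, with *Mpo* at 16.2 and 1.95 and *Elane* at 12.4 and 2.15 in the means, and 1 as higher. T cell markers summed to 6.93 to 8.37 and 5.22 to 6.60, most of it *Cd4*. *Cd4*, the only T cell marker tested, passed as lower (log2 fold change -0.54, adjusted p = 0.00177 from limma). Of the others, *Cd3e* (means of 0.0300 and 0.157 FPKM) and *Lck* (0.236 and 0.542) were higher without overlap, and the rest overlapped between the groups. Dendritic cell markers were low but apart, at 0.680 to 0.969 and 1.61 to 1.91, and none was tested. *Clec9a* was the highest of them (means of 0.429 and 1.21 FPKM) and, like *Xcr1*, did not overlap, while *Flt3*, *Zbtb46* and *Siglech* overlapped between the groups. Mast cell and basophil markers summed to 2.38 to 2.87 and 1.39 to 1.80, and *Kit*, the only one tested, did not pass. NK cell markers summed to 0.558 to 0.786 and 0.457 to 0.578. The part of these cell types in the results was not tested. In bulk RNA, fewer cells of a type and less RNA per cell cannot be told apart.

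Interleukin receptors are built from a ligand-specific chain and a chain shared between several cytokines. *Il2rg* encodes the common gamma chain of the receptors for IL-2, IL-4, IL-7, IL-9, IL-15 and IL-21, and *Il6st* encodes gp130, the shared chain for IL-6 and its relatives. At most of these receptors, binding of the ligand activates JAK kinases on the chains, which phosphorylate STAT transcription factors, whereas IL-17RA signals through TRAF adaptors. In macrophages IL-10 restrains inflammatory gene expression, IL-4 and IL-13 drive alternative activation, and IL-15 is held on the cell surface by IL-15RA and presented to natural killer and memory T cells.

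In CITED2-deficient BMDMs the common gamma chain *Il2rg*, the ligand *Il15*, its receptor chain *Il15ra* and the IL-13 receptor chain *Il13ra1* were 1.45 to 1.73 times their control level. *Il21r* and *Il6st* were higher by 12.7% and 8.69%. *Il6ra* and *Il10rb* were lower, with changes of -18.5% and -12.8% in the means. *Il10ra* and *Il17ra* did not pass the threshold. The groups were compared by limma on log2(FPKM + 1) over the 11687 genes that reached the testing level, at an adjusted p of 0.05. Thus 6 of the 10 genes passed as higher, against 16.7% of all tested genes, and 2 passed as lower, against 34.6% (51.3% in either direction). The median log2 fold change was 0.14 over the 10 genes and -0.10 over all tested genes. On the FPKM scale the typical gene was therefore slightly lower in CITED2-deficient BMDMs. When libraries were instead put on one scale through the median of their gene-wise ratios to a geometric mean library (median-ratio scaling), that median was -0.0069, and 7 genes passed as higher (23.1% of all genes) and 1 as lower (21.3%). The groups did not overlap for 6 genes in the higher direction, as for 19.0% of all tested genes, and for 2 in the lower direction, as for 40.9% (59.9% in either direction).

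**Figure D1:**
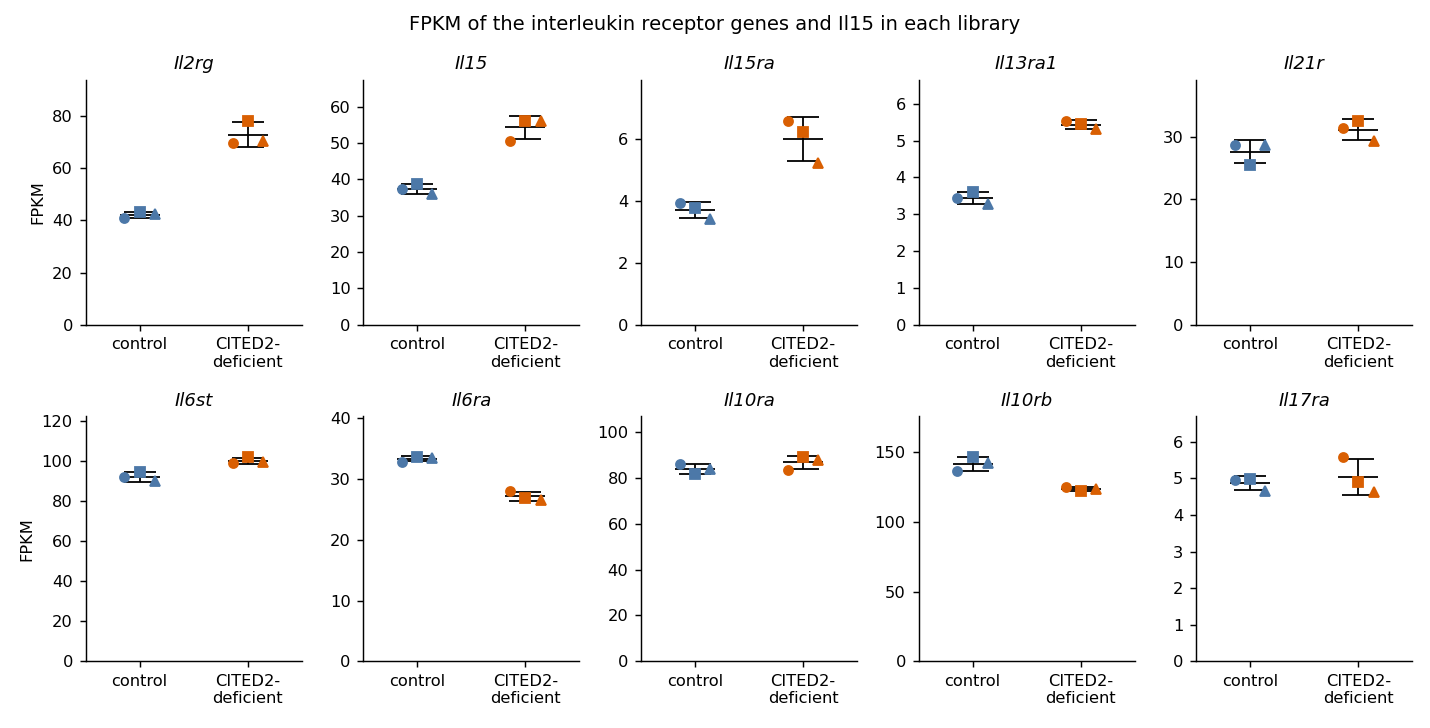
FPKM of the 10 genes in each library. Blue points are control and orange points CITED2-deficient libraries (circle, square and triangle for replicates 1, 2 and 3), and black lines give the mean and SD (n = 3); each vertical axis starts at 0 and has its own range. The groups are apart for 8 genes and overlap for *Il10ra* and *Il17ra*.

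*Il2rg* (ENSMUSG00000031304) lies on the minus strand of chromosome X, 101264378 to 101268255 in mm10. Control libraries measured 40.7, 43.3 and 42.3 FPKM, and CITED2-deficient ones 69.5, 78.2 and 70.3, given here and for the other genes in replicate order. Every CITED2-deficient library lay far above every control library, and replicate 2 was the highest. The means were 42.1 ± 1.27 and 72.7 ± 4.79 (SD, n = 3 each), a 1.73-fold difference and the largest log2 fold change of the 10 genes (0.77 ± 0.05 as standard error, adjusted p of 2.48e-06 by limma). The recovered fragments were 801, 778 and 833 in control and 1838, 1837 and 1909 in CITED2-deficient libraries. The annotated readthrough gene *Gm20489* shares exons with *Il2rg* on the same strand, so fragments of those exons could belong to either.

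*Il15* (ENSMUSG00000031712, minus strand of chromosome 8, 82331632 to 82403222) encodes the cytokine itself. Its FPKM was 37.4, 38.8 and 36.0 in control and 50.7, 56.2 and 56.1 in CITED2-deficient libraries. The groups were apart by more than the range within either. *Il15* rose from 37.4 ± 1.42 to 54.3 ± 3.16 (SD, n = 3 each), which is 0.53 ± 0.05 (standard error) as log2 fold change at an adjusted p of 3.27e-05 by limma.

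*Il15ra* (ENSMUSG00000023206, plus strand of chromosome 2, 11705290 to 11734317) encodes the high-affinity IL-15 chain that presents the cytokine to neighboring cells. Its FPKM was 3.92, 3.78 and 3.40 in control and 6.58, 6.21 and 5.21 in CITED2-deficient libraries. These values rest on 74 to 85 and 156 to 192 fragments, so *Il15ra* is measured less precisely than *Il15* or *Il2rg*. It rose from 3.70 ± 0.267 to 6.00 ± 0.711 (SD, n = 3 each), or 1.62-fold (log2 fold change 0.57 ± 0.10 as standard error, adjusted p of 0.00135 by limma). Replicate 1, which also held the most fibroblast marker RNA, was the highest CITED2-deficient library, and without it the log2 fold change was 0.51. The cytokine and its presenting chain were thus both higher in all 3 CITED2-deficient libraries.

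*Il13ra1* (ENSMUSG00000017057, plus strand of chromosome X, 36112110 to 36171259) encodes the chain that pairs with IL-4RA to bind IL-13 and IL-4. Its FPKM was 3.44, 3.61 and 3.27 in control and 5.54, 5.44 and 5.31 in CITED2-deficient libraries. The 3 CITED2-deficient values lay within a narrow range above all controls. *Il13ra1* rose from 3.44 ± 0.173 to 5.43 ± 0.120 (SD, n = 3 each), or 1.58-fold (log2 fold change 0.53 ± 0.08 as standard error, adjusted p of 0.000571 by limma). Without CITED2-deficient replicate 1 the log2 fold change was 0.52. As *Il13ra1* and *Il15ra* are low, their fold change on the log2(FPKM + 1) scale understates the change, and with a pseudocount of 0.1 it was 0.64 and 0.68.

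*Il21r* (ENSMUSG00000030745, plus strand of chromosome 7, 125603429 to 125633570) encodes the IL-21-specific chain, which signals with the common gamma chain, and lies beside *Il4ra*. Its FPKM was 28.7, 25.5 and 28.7 in control and 31.5, 32.6 and 29.3 in CITED2-deficient libraries. The groups did not overlap, but the gap between them was smaller than the range within either. The means were 27.6 ± 1.85 and 31.1 ± 1.68 (SD, n = 3 each), and limma gave a log2 fold change of 0.17 with standard error 0.06 (adjusted p of 0.0440 by limma). The call was lost in 8 of 17 alternatives, including 4 of the 6 fits that left out a library (controls 2 and 3, CITED2-deficient 1 and 2, adjusted p from 0.0504 to 0.135) and the fit with replicate number as a block (adjusted p = 0.0735).

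Of the IL-6 receptor genes, *Il6st* (ENSMUSG00000021756, plus strand of chromosome 13, 112464070 to 112510086) had an FPKM of 92.2, 94.9 and 90.0 in control and 99.4, 102 and 99.7 in CITED2-deficient libraries. The difference was small, but the highest control library lay below the lowest CITED2-deficient library. *Il6st* rose from 92.4 ± 2.41 to 100.4 ± 1.46 (SD, n = 3 each), which is 0.12 ± 0.03 (standard error) as log2 fold change at an adjusted p of 0.0138 by limma, and the call was lost without control replicate 3 (log2 fold change 0.10, adjusted p = 0.0557 from limma). *Il6ra* (ENSMUSG00000027947, minus strand of chromosome 3, 89864059 to 89913196), the chain that binds IL-6, went the other way. Its FPKM was 32.9, 33.6 and 33.6 in control and 28.1, 26.8 and 26.6 in CITED2-deficient libraries, and the groups were clearly apart. The antisense gene *Gm42809* overlaps *Il6ra*, and whether the counting used strand is not stated. *Il6ra* fell from 33.3 ± 0.406 to 27.2 ± 0.792 (SD, n = 3 each), which is -0.29 ± 0.04 (standard error) as log2 fold change at an adjusted p of 0.000413 by limma, and after median-ratio scaling the log2 fold change was -0.19 (adjusted p = 0.00519).

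*Il10rb* (ENSMUSG00000022969, plus strand of chromosome 16, 91406164 to 91425834) encodes the IL-10 receptor chain shared with IL-22 and the lambda interferons. Its FPKM was 136, 146 and 143 in control and 125, 122 and 124 in CITED2-deficient libraries. All CITED2-deficient values lay below all controls. The means were 142 ± 5.13 and 124 ± 1.71 (SD, n = 3 each), and limma gave a log2 fold change of -0.19 with standard error 0.03 (adjusted p of 0.00136 by limma). Relative to the median of all tested genes, the difference was -0.094, and after median-ratio scaling *Il10rb* did not pass (-0.092, adjusted p = 0.0686). A readthrough gene from *Ifnar2* into *Il10rb*, *Gm21970*, shares its exons on the same strand. *Il10ra* (ENSMUSG00000032089, minus strand of chromosome 9, 45253837 to 45269149), the chain that binds IL-10, had an FPKM of 86.1, 81.7 and 83.8 in control and 83.5, 88.9 and 87.7 in CITED2-deficient libraries. These ranges overlapped. The log2 fold change was 0.048 with a 95% interval from -0.036 to 0.13 (adjusted p = 0.311 from limma), and after median-ratio scaling it was 0.15 and passed (adjusted p = 0.0106). From the same BMDM experiment, the study names *Il10ra* among the STAT3 and STAT5 signaling genes that it reports as elevated. It used Cuffdiff and gene set enrichment, which were not repeated here.

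*Il17ra* (ENSMUSG00000002897, plus strand of chromosome 6, 120463247 to 120487559) encodes a chain shared by the receptors of several IL-17 cytokines. Its FPKM was 4.95, 4.99 and 4.64 in control and 5.58, 4.90 and 4.62 in CITED2-deficient libraries, and replicate 1 alone lay above the controls. The log2 fold change was 0.039 with a 95% interval from -0.16 to 0.24 (adjusted p = 0.737 from limma), and it was -0.025 without CITED2-deficient replicate 1. *Il17ra* therefore showed no difference that was detectable beyond the spread between libraries, and changes inside that interval cannot be told from none.

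**Figure D2:**
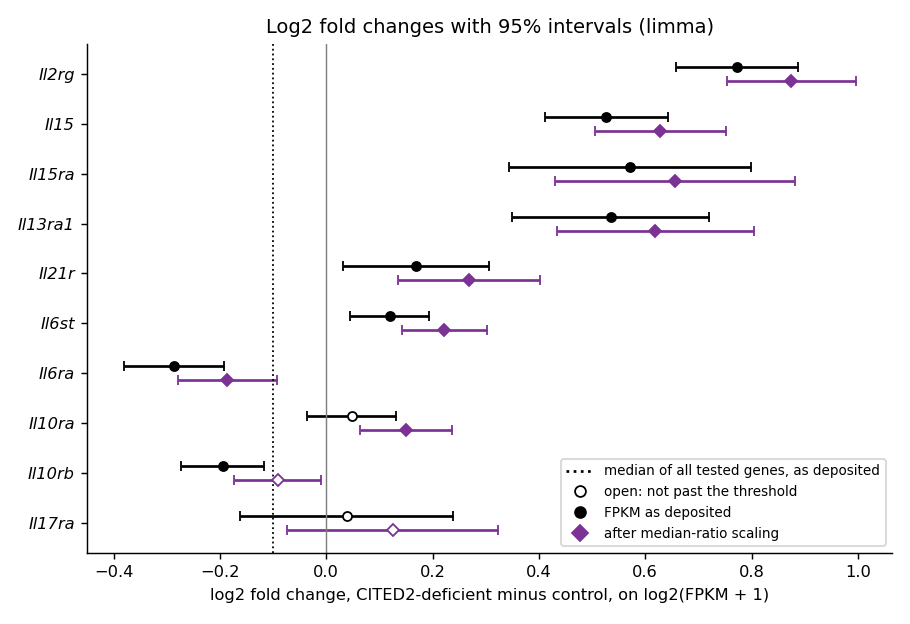
Log2 fold changes (CITED2-deficient minus control) of the 10 genes on the log2(FPKM + 1) scale, with 95% intervals from limma. Circles use FPKM as deposited, diamonds use median-ratio scaling, open symbols did not pass the threshold, the grey line marks 0 and the dotted line the median of all tested genes (-0.10). Scaling shifts all 10 genes upward, *Il10ra* gains its call and *Il10rb* loses it.

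The level of the genes, which FPKM gives per transcript length, covered a wide range. In control BMDMs *Il10rb* was the most abundant (142 FPKM), followed by *Il6st* (92.4), *Il10ra* (83.9), *Il2rg* (42.1), *Il15* (37.4), *Il6ra* (33.3), *Il21r* (27.6), *Il17ra* (4.86), *Il15ra* (3.70) and *Il13ra1* (3.44). Of these neighbors the ranges of *Il15ra* and *Il13ra1* overlapped over the 3 libraries. In CITED2-deficient BMDMs the first 5 genes kept their order, while *Il21r* (31.1) stood above *Il6ra* (27.2), and *Il15ra* (6.00), *Il13ra1* (5.43) and *Il17ra* (5.03) overlapped as neighbors. *Il10rb* had a higher level than 93.4% of tested genes in control BMDMs, and *Il13ra1* than 19.0%. These levels rest on the mean length of all annotated transcripts of a gene, of which *Il15ra* has 18 and *Il13ra1* 1, so differences between genes are less certain than differences between genotypes.

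Ratios between genes within a library do not depend on the scaling between libraries, and 8 pairs were compared on the log2 scale by a two-sided exact permutation test, whose smallest p with 3 against 3 libraries is 0.1. *Il2rg* enters 3 of these pairs. *Il6ra* FPKM per *Il6st* FPKM was 0.357, 0.354 and 0.373 in control and 0.282, 0.263 and 0.267 in CITED2-deficient libraries. All 3 CITED2-deficient ratios were lower, with a log2 difference of -0.42 (exact permutation p = 0.1, adjusted p = 0.16 over 8 pairs). *Il10ra* per *Il10rb* was 0.632, 0.558 and 0.587 in control and 0.667, 0.729 and 0.708 in CITED2-deficient libraries, so the ligand-binding chain was higher relative to the shared chain in all 3 (log2 difference 0.24, exact permutation p = 0.1, adjusted p = 0.16). Neither reached 0.05, which this design cannot do.

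For the common gamma chain, *Il21r* per *Il2rg* was 0.703, 0.588 and 0.678 in control and 0.452, 0.417 and 0.416 in CITED2-deficient libraries. The ratio was lower in all 3 CITED2-deficient libraries, with a log2 difference of -0.61 (exact permutation p = 0.1, adjusted p = 0.16). *Il15ra* per *Il2rg* was 0.0880 ± 0.00785 and 0.0827 ± 0.0107 (SD, n = 3 each). *Il13ra1* per *Il2rg*, 2 chains that each pair with IL-4RA rather than with each other, was 0.0817 ± 0.00381 and 0.0749 ± 0.00511. *Il15* per *Il15ra* was 10.1 ± 0.537 and 9.18 ± 1.54. These 3 ratios overlapped between the groups, with log2 differences of -0.094, -0.13 and -0.16 (exact permutation p = 0.4, 0.2 and 0.4, adjusted p = 0.4, 0.267 and 0.4). *Il13ra1* per *Il4ra*, the chains of the type II IL-4 receptor, did not overlap. It was 0.0410, 0.0467 and 0.0395 in control and 0.0903, 0.0858 and 0.0877 in CITED2-deficient libraries, a log2 difference of 1.06 (exact permutation p = 0.1, adjusted p = 0.16). *Il4ra* itself, the shared IL-4 and IL-13 chain, fell from 81.3 ± 3.45 to 61.8 ± 1.47 FPKM (log2 fold change -0.39, adjusted p = 5.02e-05 from limma). *Il17ra* per *Il17rc* was 5.65 ± 2.33 and 2.27 ± 0.648 (log2 difference -1.28, exact permutation p = 0.1, adjusted p = 0.16), where *Il17rc*, the partner chain for IL-17A and IL-17F, rested on 11 to 24 fragments in control and 41 to 81 in CITED2-deficient libraries.

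**Figure D3:**
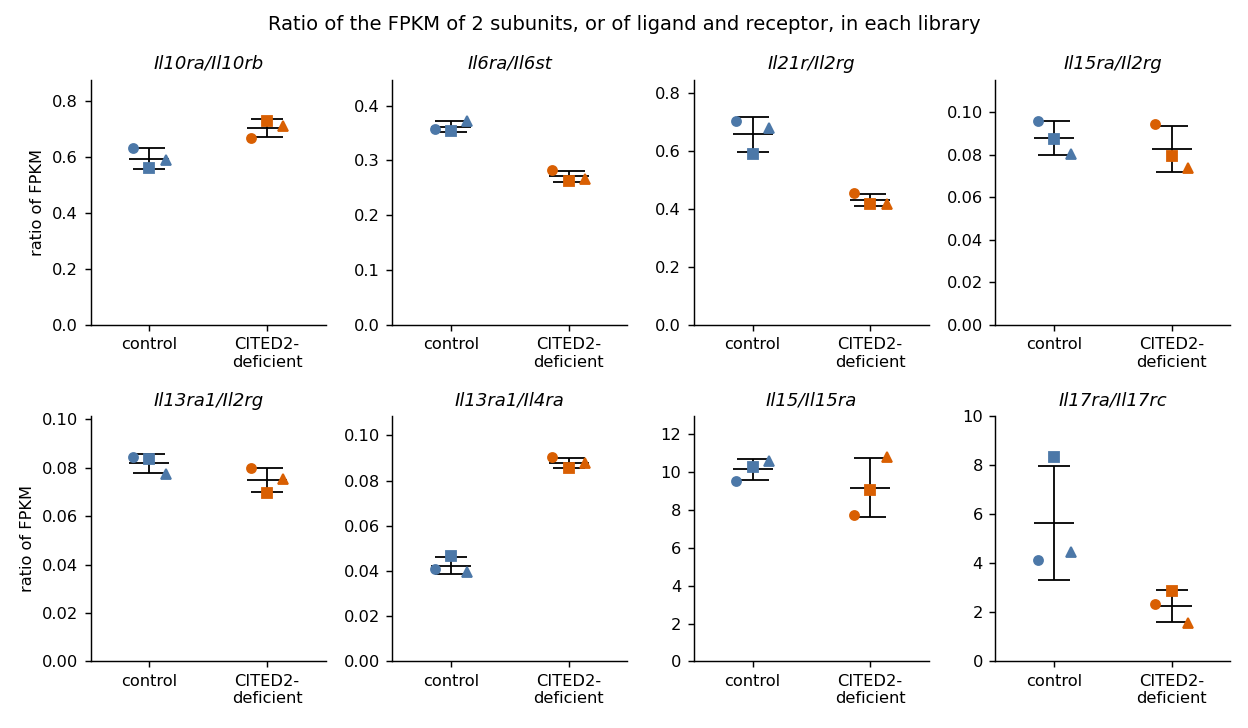
Ratio of the FPKM of 2 receptor chains, or of *Il15* to *Il15ra*, in each library, with mean and SD (n = 3); colors and symbols are blue for control, orange for CITED2-deficient, and circle, square and triangle for replicates 1 to 3. The groups are apart for *Il10ra/Il10rb*, *Il6ra/Il6st*, *Il21r/Il2rg*, *Il13ra1/Il4ra* and *Il17ra/Il17rc*, and overlap for the other 3.

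Promoter windows from RefSeq (GRCm38.p6, the build of mm10), from 250 bases before to 50 after a transcript start, were matched for 6 of the 10 genes (7 windows, 2 of them for *Il15ra*). *Il10ra*, *Il10rb*, *Il17ra* and *Il15* were not matched. On both strands, the interferon-stimulated response element, to which IRF factors bind (GAAANNGAA with one further A), matched none of the 7 windows and 3.44% of all 32851 windows, and TTCNNNGAA, the STAT dimer element, matched none and 8.3%. After these results and the windows had been seen, GAAANNGAA alone, which the longer element contains, and CCGGAA, a core bound by ETS factors, were added. GAAANNGAA matched both windows of *Il15ra* and none of the other 5 genes, against 8.56% of all windows. CCGGAA matched *Il2rg*, *Il15ra* and *Il6st*, against 14.9%. A match describes letters only. The stretches with matches in genes that passed as higher are shown 5′ to 3′ on the strand of the gene, with the matched letters of either strand in capitals.
Il2rg, before its start (chrX:101268256-101268375, minus strand, an intron of *Gm20489*): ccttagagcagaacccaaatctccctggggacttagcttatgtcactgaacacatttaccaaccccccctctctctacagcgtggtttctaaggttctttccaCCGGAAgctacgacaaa
Il15ra, before its upstream start (chr2:11705093-11705283, plus strand): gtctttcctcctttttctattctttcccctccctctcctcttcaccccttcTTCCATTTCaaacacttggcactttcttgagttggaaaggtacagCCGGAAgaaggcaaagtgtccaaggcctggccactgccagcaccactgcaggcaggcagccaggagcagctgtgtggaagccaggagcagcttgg
Il15ra, a stretch of 26 bases behind its downstream start (chr2:11705732-11705757, plus strand): aagcaaaagcGAAAGCGAAtactcct
Il6st, before its start (chr13:112463840-112464069, plus strand): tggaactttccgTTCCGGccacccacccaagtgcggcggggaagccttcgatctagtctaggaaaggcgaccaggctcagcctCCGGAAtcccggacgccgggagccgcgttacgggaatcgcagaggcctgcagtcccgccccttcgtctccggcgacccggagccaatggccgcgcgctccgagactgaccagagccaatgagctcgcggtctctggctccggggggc
The CCGGAA of *Il2rg* begins 17 bases before the start and that of *Il15ra* 104 bases before the upstream start. The *Il15ra* matches to GAAANNGAA begin 149 bases before the upstream start and 30 bases behind the downstream start.

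Other genes of the pathway were read from lists by role. Of 35 other interleukin receptor genes, 33 were listed and 13 tested, of which 7 passed as higher, 4 as lower and 2 did not pass (median log2 fold change 0.19), against 16.7% higher and 34.6% lower over all tested genes. Higher were *Il7r*, the IL-7 chain that pairs with the common gamma chain (121.5 ± 5.86 to 227 ± 7.98 FPKM, log2 fold change 0.90, adjusted p = 2.45e-07 from limma), *Csf2rb2*, *Csf2rb*, *Il11ra1*, *Il12rb1*, *Il17rc* and *Il18rap*. The last 3 had control means under 1 FPKM and were tested only through their level in the CITED2-deficient group. *Csf2ra* did not pass, but passed as higher after median-ratio scaling (adjusted p = 0.00593 from limma). *Csf2rb* and *Csf2rb2* are near-identical relatives, so fragments could have been divided between them. Lower were *Il4ra*, *Il3ra*, *Lifr*, a gp130 partner (13.7 ± 0.752 to 7.92 ± 0.524 FPKM, log2 fold change -0.72), and *Crlf2*, the thymic stromal lymphopoietin receptor (102 ± 1.29 to 65.1 ± 3.47 FPKM, log2 fold change -0.64). Of the tested chains that pair with the common gamma chain, *Il7r*, *Il15ra* and *Il21r* thus passed as higher and *Il4ra* as lower. Of those below the testing level, *Il2rb* (0.202 ± 0.0534 and 0.310 ± 0.0901 FPKM) and *Il9r* overlapped between the groups, and *Il2ra* is described below.

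Of 5 interferon receptor genes, 4 were tested, and 3 fell. *Ifngr1*, the ligand-binding chain for interferon gamma, fell from 250.1 ± 3.59 to 132 ± 3.88 FPKM (log2 fold change -0.92, adjusted p = 3.02e-08 from limma). *Ifnar1* and *Ifnar2*, the chains for type I interferons, fell by 0.27 and 0.30 on the log2 scale, and *Ifngr2* did not pass (0.020), though it passed as higher after median-ratio scaling (adjusted p = 0.0111 from limma). *Ifnar2* neighbors *Il10rb* on chromosome 16, and both fell on the FPKM as deposited. The neighbors *Il21r* and *Il4ra*, however, went in opposite directions (log2 fold changes 0.17 and -0.39). A part of gene position was not tested.

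Ligands of the receptors were few. Of 17 genes, 11 were listed and 5 tested. *Il27*, a gp130 cytokine subunit, rose from 1.08 ± 0.190 to 2.06 ± 0.171 FPKM (adjusted p = 0.00588 from limma), *Osm* fell from 6.86 ± 0.662 to 4.17 ± 0.548 and *Il4* fell by 0.73 on the log2 scale, and *Il10* (4.15 ± 0.0840 and 3.97 ± 0.253) and *Clcf1* did not pass. Of the ligands below the testing level, *Il7* alone passed when all genes were fitted without the filter, where 9.90% of genes passed as higher. *Il7* was higher, with 2, 9 and 5 fragments in control and 34, 22 and 24 in CITED2-deficient libraries (adjusted p = 0.0159 from limma). *Il15*, at 37.4 and 54.3 FPKM, was at a higher level than each of these ligands.

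Of the 4 JAK kinases, *Jak2* rose (10.2 ± 0.498 to 12.6 ± 0.568 FPKM), *Jak3*, the kinase bound by the common gamma chain, fell from 19.1 ± 0.530 to 15.2 ± 0.195 (log2 fold change -0.32, adjusted p = 0.000573 from limma), *Jak1* passed as lower (-0.11, but not after median-ratio scaling) and *Tyk2* did not pass, though it passed as higher after median-ratio scaling (adjusted p = 0.00748 from limma). *Il2rg* and *Jak3* thus moved in opposite directions in the same libraries. Among the STAT genes, *Stat2* (2.10) and *Stat6* (0.11) passed as higher and *Stat4* and, as deposited but not after median-ratio scaling, *Stat3* and *Stat5b* as lower. Of 15 inhibitor genes, 14 were tested, and *Socs1* (0.587 ± 0.0761 to 1.67 ± 0.364 FPKM, adjusted p = 0.00282 from limma) and *Ptpn6* passed as higher, *Pias1*, *Pias3* and *Pias4* as lower (*Pias4* not after median-ratio scaling), and 9 did not pass. *Socs1* was tested only through its level in the CITED2-deficient group, and *Stat4*, at 1.75 and 0.774 FPKM, had a CITED2-deficient mean under 1. *Ptpn1* and *Ptpn2* passed as higher after median-ratio scaling (adjusted p = 0.00945 and 0.0287 from limma). *Socs3*, the inhibitor that binds gp130, was at 8.10 ± 0.591 and 7.77 ± 1.40. Of the proteases that shed IL-6RA and IL-15RA, *Adam17* rose from 135 ± 1.29 to 159 ± 5.22 FPKM (log2 fold change 0.23, adjusted p = 0.000324 from limma), and *Adam10* did not pass (-0.023). Of 5 genes of IL-17 receptor signaling, adaptors among them, *Traf3* and *Traf6* passed as higher, *Traf3ip2* and *Tab2* as lower (*Tab2* not after median-ratio scaling), and *Map3k7* did not pass. Over all 54 tested genes of the lists, 17 passed as higher and 19 as lower, or 22 and 14 after median-ratio scaling, where the shares over all tested genes were 16.7% and 34.6%, or 23.1% and 21.3%. The lists had a median log2 fold change of -0.024.

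**Figure D4:**
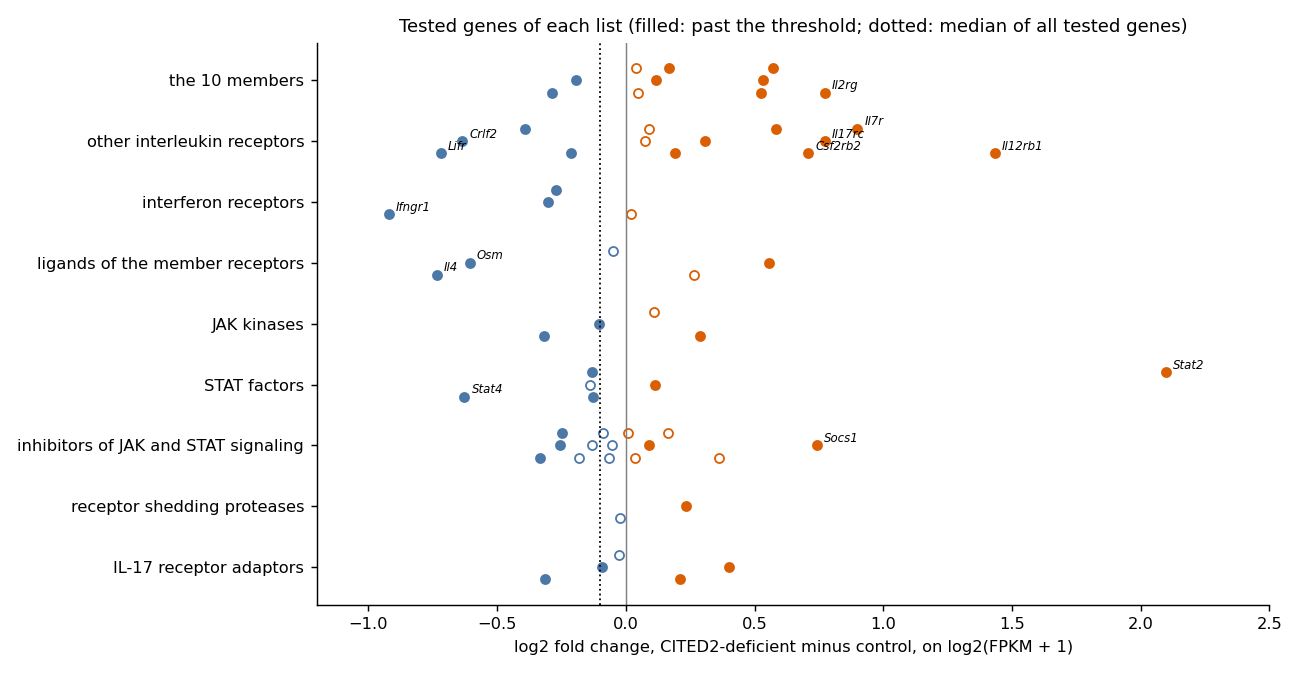
Log2 fold changes (CITED2-deficient minus control, log2(FPKM + 1) scale) of the tested genes in each list (1 not shown), with names for those beyond 0.6 in size. Filled points passed the threshold in limma, orange is above and blue below 0, the vertical offset has no meaning and the dotted line marks the median of all tested genes (-0.10). The 10 genes lie between -0.29 and 0.77, and of the genes shown *Stat2* (2.10) lies farthest out.

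Another 20 interleukin receptor genes were listed but lay below a mean FPKM of 1. When all 22248 genes were fitted without the filter, 4 of them passed as higher and 2 as lower, against 9.90% and 16.3% of all genes. Higher were *Il1r2*, the decoy receptor for IL-1 (2, 4 and 1 fragments in control and 14, 16 and 32 in CITED2-deficient libraries, adjusted p = 0.0133 from limma), *Osmr*, a gp130 partner (40, 32 and 31 against 126, 99 and 96, adjusted p = 0.00767), *Il2ra* (5, 3 and 4 against 18, 18 and 13, adjusted p = 0.0157) and *Il1rl2* (9, 14 and 10 against 45, 45 and 25, adjusted p = 0.0470). Lower were *Il1rl1*, the IL-33 receptor (84, 65 and 68 fragments against 43, 37 and 49, adjusted p = 0.00578), and *Il17rb* (6, 3 and 5 against 0, 0 and 0, adjusted p = 0.0133). The CITED2-deficient libraries were sequenced more deeply, so fragment numbers alone do not give the fold change. *Il2ra* adjoins *Il15ra* on chromosome 2, and both were higher.

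For the 10 genes other than *Il6st*, the tested gene with the most similar pattern was the gene with the smallest root mean square difference over the 6 libraries, after log2(FPKM + 1) was centered on each gene's mean. It was *P2ry2* for *Il2rg* (difference 0.0273), *Rasgef1b* for *Il15* (0.0364), *Gm46224* for *Il15ra* (0.0382), *1700017B05Rik* for *Il13ra1* (0.0169), *Nol12* for *Il21r* (0.0212), *Ptpa* for *Il6ra* (0.00788), *Pcyt1a* for *Il10ra* (0.0149), *Fam98b* for *Il10rb* (0.0149) and *AC126457.1* for *Il17ra* (0.0203). With 6 libraries in 2 groups, such likeness rests mostly on the size of the difference between the groups.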

How the data were processed

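RNA of 6 BMDM libraries was measured. Per the labels and the study's methods, the authors sequenced stranded, ribosomal-RNA-depleted libraries, aligned them to mm10 (STAR) and computed FPKM per gene and library with Cuffdiff on GENCODE genes. The sources used here do not give versions. The Cuffdiff test needs alignments and was not repeated.

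From the deposited FPKM, genes averaging 1 or more were fitted by limma (version 3.58.1, R 4.3.3) as log2(FPKM + 1) (variance trend, Benjamini-Hochberg adjustment over all 11687 genes, threshold 0.05). Fragment numbers were recovered with the mean GENCODE vM21 transcript length, rounded down, and for 96.1% of 22239 matched genes, the 10 genes included, every library gave a whole number within a tolerance of 0.02. Depth was 1.34 times higher in the CITED2-deficient group. FPKM are relative, so large changes in abundant genes move the values of the rest. Ratios were tested with scipy 1.17.1. The steps were tested on simulated data in which few genes changed and all of them upward. The simulation therefore does not cover the many changes in both directions found here.

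The genes, lists and tests were chosen with earlier results of these data known. The text names the 10 genes, *Cited2*, members of the lists and the nearest gene of each member, except 1 list gene and 1 nearest gene that are not reported here. Alternatives were pseudocounts of 0.1 and 0.5 (1 for ratios), no filter, a stricter one (average FPKM of 5), median-ratio scaling, quantile normalization, no variance trend, array weights, a replicate block, limma-voom on recovered fragments and each library left out. Thinning to equal depth was added after the data had been seen.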

Additional observations from a re-analysis of the deposited data

How the results depend on the processing

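*Il2rg*, *Il15*, *Il15ra*, *Il13ra1* and *Il6ra* kept their direction and passed the threshold in every alternative in which they were tested. Of the results compared across alternatives, 314 values kept direction and side of the threshold or stayed within 1.5 times, and 19 did not, counted as 12 weaker, 2 stronger, 4 moved and 1 reversed. The ratios were judged by direction alone, and a replicate block cannot change their value. The log2 fold changes of the 10 genes cannot change without a filter, without the variance trend or with the block. The count of 314 therefore cannot be read as a measure of stability. With median-ratio scaling and with limma-voom on recovered fragments, lower calls over all genes were 2490 and 2615 (4044 as reported), lower calls among the 10 genes were 1 and 1, *Il10ra* passed at 0.15 and 0.15 (adjusted p = 0.0106 and 0.00173), and *Il10rb* did not pass at -0.092 and -0.091 (adjusted p = 0.0686 and 0.0539). *Il6st* did not pass at 0.12 without the variance trend (adjusted p = 0.0513). *Il21r* did not pass at 0.17 without a filter, 0.17 without the trend and 0.15 with array weights (adjusted p = 0.0933, 0.0806 and 0.0617).

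With 1 library removed at a time, log2 fold changes ran from 0.72 to 0.80 for *Il2rg*, 0.50 to 0.57 for *Il15*, 0.51 to 0.66 for *Il15ra*, 0.51 to 0.56 for *Il13ra1*, 0.11 to 0.21 for *Il21r*, 0.10 to 0.14 for *Il6st*, -0.31 to -0.27 for *Il6ra*, 0.029 to 0.074 for *Il10ra*, -0.22 to -0.17 for *Il10rb* and -0.025 to 0.088 for *Il17ra*, which reversed at -0.025 without CITED2-deficient replicate 1. The higher calls among the 10 genes were then 4 to 6, and the ratios kept their direction. Their log2 differences, however, ran from -0.19 to -0.018 for *Il15ra* per *Il2rg* (lowest without CITED2-deficient replicate 1, highest without replicate 3), -0.28 to -0.036 for *Il15* per *Il15ra* (without replicates 3 and 1), -0.17 to -0.075 for *Il13ra1* per *Il2rg* (without replicates 1 and 2) and -1.47 to -0.96 for *Il17ra* per *Il17rc* (highest without control replicate 2), which was -0.73 with a pseudocount of 1 on both FPKM. The cause of these changes was not tested.

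The deviations of equal replicate numbers from their group means correlated at 0.014, 0.0078 and 0.040. Control replicate 1 correlated best with CITED2-deficient replicate 2 (0.035), but control replicate 3 correlated best with CITED2-deficient replicate 3. With 3 libraries per group these values cannot decide whether replicate numbers pair the libraries. With the replicate block the counts over all genes were 1895 higher and 3813 lower, and among the 10 genes the call of *Il21r* was lost (log2 fold change 0.17, adjusted p = 0.0735). *Il15ra* had the fewest fragments of the 10 genes (74 to 192), which limits its precision.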
